A study of Mus musculus with 18 samples.

Results

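The TSC22 family comprises 4 mouse genes, Tsc22d1, Tsc22d2, Tsc22d3 and Tsc22d4, and its expression was followed here in macrophages given a glucocorticoid. Every probe set annotated with 1 of these 4 symbols and no other symbol was taken, which gave 10 of the 45141 probe sets on the array and 4 of its 17097 genes with a symbol of their own. Tsc22d1 and Tsc22d3 had 3 probe sets each, and Tsc22d2 and Tsc22d4 had 2 each. Of the 10 probe sets, 9 passed the filter on dim values and entered the tests, among 31426 tested probe sets in all. The exception was Tsc22d4 1430299_PM_at, which lay above the background of the control probe sets on 0 of 18 arrays.

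The cells were bone marrow derived macrophages from 3 male C57BL/6 mice aged 10 weeks; whether their marrow was pooled is not stated in the labels. Marrow was grown for 1 week in 10% fetal calf serum with recombinant human CSF1, a macrophage growth factor, at 10000 U/ml, and the cells were replated in the same factors. Cells were taken at baseline or after 1, 2, 4, 10 or 24 h in 100 nM dexamethasone, a synthetic agonist of the glucocorticoid receptor, with 3 arrays in each of the 6 groups. All groups thus carried serum and CSF1, and the 5 treated times were compared with the same 3 baseline arrays. No untreated array of a later time was used, so time in culture after replating and time in dexamethasone cannot be told apart. The labels call the arrays of a group biological replicates and do not say which mouse each came from, so p-values measure the spread between these arrays.

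The proteins of the family share a leucine zipper next to a conserved TSC box, through which they form dimers, and several of them occur as long and short isoforms from separate promoters. Tsc22d3 encodes GILZ, the glucocorticoid-induced leucine zipper, a direct target of the ligand-bound glucocorticoid receptor whose short isoform binds NF-kappaB and AP-1 subunits and is known for restraining inflammatory transcription in macrophages. Tsc22d1 was first found as a transcript induced by TGF-beta, and Tsc22d2 and Tsc22d4 proteins have been tied to the pseudokinase NRBP1, to WNK kinases and, for Tsc22d4, to insulin and AKT signalling.

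In RefSeq on GRCm38.p6, Tsc22d3 (gene 14605) lies at chrX:140539528-140600522 and Tsc22d1 (gene 21807) at chr14:76414961-76507765. Tsc22d2 (gene 72033) lies at chr3:58414702-58466787 and Tsc22d4 (gene 78829) at chr5:137745969-137768453. RefSeq promoter windows of 250 bases before a start were at hand for 3 starts of Tsc22d3 and 5 starts of Tsc22d1. The 3 windows of Tsc22d3 are shown because its probe sets rose most in the family. In addition 1 window of Tsc22d1 is shown because it holds the core hexamer of a glucocorticoid receptor site, as 1 window of Tsc22d3 does. Each is printed 5′ to 3′ on the strand of the gene, and capitals mark TGTTCT or AGAACA, the core hexamer of a glucocorticoid receptor site on either strand, or TGACG, the core of a cyclic AMP response element.
Tsc22d3 start 1, chrX:140542669-140542918, minus strand: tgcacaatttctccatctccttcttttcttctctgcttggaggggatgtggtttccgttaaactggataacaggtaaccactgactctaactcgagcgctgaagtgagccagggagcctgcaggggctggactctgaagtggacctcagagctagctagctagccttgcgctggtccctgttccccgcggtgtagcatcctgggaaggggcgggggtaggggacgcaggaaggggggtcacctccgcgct
Tsc22d3 start 2, chrX:140548572-140548821, minus strand: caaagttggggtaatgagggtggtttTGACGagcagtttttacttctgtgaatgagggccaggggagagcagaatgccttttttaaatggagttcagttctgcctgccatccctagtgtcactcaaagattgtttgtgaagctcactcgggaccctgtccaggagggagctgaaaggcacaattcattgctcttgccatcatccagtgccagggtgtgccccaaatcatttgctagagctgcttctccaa
Tsc22d3 start 3, chrX:140600523-140600772, minus strand: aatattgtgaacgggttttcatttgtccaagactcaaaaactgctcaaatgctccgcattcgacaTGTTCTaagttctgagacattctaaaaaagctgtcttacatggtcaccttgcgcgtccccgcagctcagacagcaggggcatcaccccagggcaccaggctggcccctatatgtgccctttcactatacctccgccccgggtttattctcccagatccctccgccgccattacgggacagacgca
Tsc22d1 start 4, chr14:76503976-76504225, plus strand: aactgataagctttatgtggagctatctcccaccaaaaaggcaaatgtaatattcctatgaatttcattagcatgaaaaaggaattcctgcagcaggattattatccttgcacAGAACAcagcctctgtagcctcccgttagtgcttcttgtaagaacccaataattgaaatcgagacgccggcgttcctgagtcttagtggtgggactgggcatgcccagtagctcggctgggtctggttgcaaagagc
The window before start 3 of Tsc22d3, the start farthest upstream, held TGTTCT at 185 to 180 bases before the start. The window before start 2 held TGACG at 224 to 220 bases before it, and the window before start 1 held none of the motifs searched. For Tsc22d1, AGAACA stood 137 to 132 bases before start 4, and TGACG stood 181 to 177 bases before start 5, whose window is not printed. The windows before starts 1, 2 and 3 of Tsc22d1 held none of the motifs searched. TGTTCT or AGAACA occurred in 5284 of 32851 RefSeq windows of this length, or 16.1%, and TGACG or CGTCA in 17.8%. The full palindromic receptor site, the hexamer and its reverse complement with 3 bases between, was in 3 windows (0.00913%), and the forkhead motif TGTTTAC or GTAAACA was in 3.17%; neither was in a window of Tsc22d1 or Tsc22d3. A match describes the letters only. No binding was measured, and which start each probe set reads was not determined here.

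Replicate arrays correlated at 0.994 to 0.997, and 58.9% to 75.7% of tested probe sets lay above background on an array. Of 11 macrophage markers listed, 10 were named on the array, and all 10 lay above background on every array. Their summed intensity ran from 26597 to 27819 at baseline and from 29946 to 30475 at 24 h. Among them Mertk, C1qa, C1qb and Itgam were called higher at 24 h, at 2.10 ± 0.09, 0.96 ± 0.08, 0.61 ± 0.05 and 0.55 ± 0.09. Fcgr1 was called lower (-0.31 ± 0.10, adjusted p 0.0441), and Csf1r, Adgre1, Cd68, Cd14 and Lyz2 had no call then. Markers of other cells summed to far less, though the lists hold different probe sets, so the sums do not give shares of cells. Above background on every array were 3 of 8 neutrophil, 2 of 8 T and NK cell, 1 of 5 B cell and 1 of 6 mast cell and basophil markers. For dendritic cells it was 0 of 4, for fibroblasts and stroma 0 of 7 and for erythroid cells 0 of 5. The 8 neutrophil markers on the array summed to between 341 and 488 at baseline and between 661 and 765 at 24 h. Within them Mmp8, a collagenase, was 1.59 ± 0.17 log2 higher at 24 h. The granule protein genes Ngp and Ltf were lower, at -1.13 ± 0.18 and -0.90 ± 0.22, and the other 5 had no call at 24 h. Of these 5, Camp, above background on 13 arrays, was called lower at 10 h (-0.51 ± 0.16, adjusted p 0.0462). The 6 mast cell and basophil markers summed to between 123 and 125 at baseline and between 70.3 and 88.6 at 24 h. Of these, 4 were above background on no array, and Kit, a growth factor receptor that was the 1 marker above it on every array, was at -1.32 ± 0.16 at 24 h. For Gapdh, the control probe set at the 3′ end read higher than that at the 5′ end by 0.06 ± 0.03 log2 (SD, n = 3) in baseline RNA, and by 0.15 to 0.20 in RNA of the 5 treated times; this gap widens as RNA degrades. The same gap for Actb was 0.38 at baseline and 0.40 to 0.43 at the treated times. Neither the marker shifts nor these gaps were tested for a part in the results on the family. In RNA from bulk cultures, fewer cells of a type and less RNA per cell cannot be told apart.

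Levels below are log2 of the deposited intensity for 1 probe set on 1 array, and a change is the difference of 2 group means with the standard error (SE) of the limma model over all 18 arrays. Adjusted p-values are limma's, Benjamini-Hochberg adjusted over all tested probe sets within the comparison, and a probe set is called where this is under 0.05. Levels of different probe sets are not compared, since each has its own probes. Where the arrays of groups are said to lie apart, this describes those arrays only. The share of all tested probe sets that lie apart so is not given, and no support is drawn from it.

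Tsc22d3 rose within 1 h and stayed high through 24 h. On probe set 1425281_PM_a_at, the brightest of the gene, the 3 baseline arrays read 8.79, 8.85 and 8.70. At 1 h they read 10.69, 10.53 and 10.53, at 2 h 11.01, 11.03 and 10.90, and at 4 h 11.14, 11.17 and 11.04. At 10 h they read 11.33, 11.24 and 11.11 and at 24 h 10.97, 11.06 and 11.04. Every treated array lay above every baseline array, and the 3 arrays at 1 h lay below those of each later time. The change from baseline was 1.80 ± 0.06 at 1 h, 2.20 ± 0.06 at 2 h, 2.34 ± 0.06 at 4 h, 2.45 ± 0.06 at 10 h and 2.24 ± 0.06 at 24 h. These are rises of 3.49-fold, 4.60-fold, 5.06-fold, 5.45-fold and 4.73-fold, with adjusted p from 3.86e-16 at 1 h to 3.61e-19 at 10 h.

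The second bright probe set of Tsc22d3, 1420772_PM_a_at, read 8.51, 8.38 and 8.60 at baseline. It read 10.70, 10.67 and 10.60 at 1 h, 11.00, 10.89 and 10.88 at 2 h, and 11.08, 11.12 and 11.02 at 4 h. The arrays read 10.86, 11.06 and 10.94 at 10 h and 10.79, 10.78 and 10.88 at 24 h. All treated arrays again lay above all baseline arrays, and the highest group was that of 4 h. The changes were 2.16 ± 0.06, 2.43 ± 0.06, 2.58 ± 0.06, 2.45 ± 0.06 and 2.32 ± 0.06 at the 5 times in order, or 4.47-fold to 5.97-fold, with adjusted p of 1.03e-17 or less. By size of rise among 31426 tested probe sets, the pair of bright probe sets took ranks 3 and 5 at 1 h and ranks 35 and 38 at 24 h. Between these times the rise of 1425281_PM_a_at went from 1.80 to 2.24 and that of 1420772_PM_a_at from 2.16 to 2.32, each with higher values in between. The number of probe sets called in either direction went from 104 to 2734. Why the ranks moved was not tested.

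**Figure D1:**
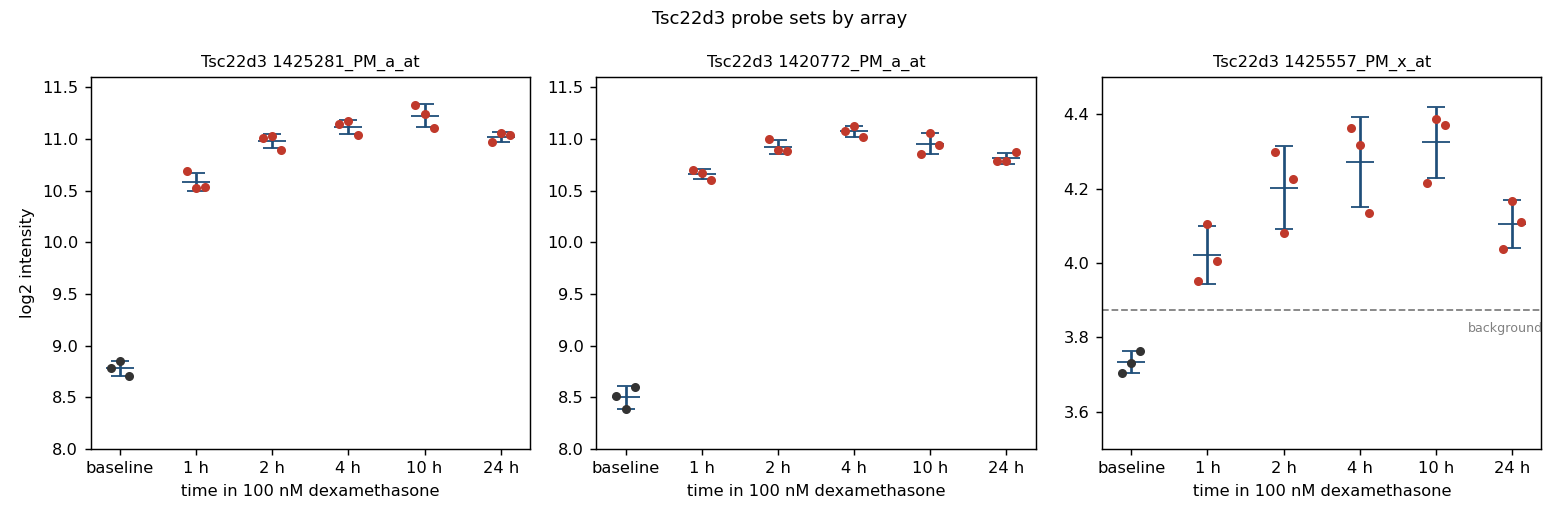
Log2 intensity of the 3 Tsc22d3 probe sets on each of 18 arrays, by time in 100 nM dexamethasone; points are arrays (baseline black, treated red) and bars the mean ± SD of 3 arrays. The pair of bright probe sets share 1 axis scale and rise from near 8.5 to above 10.5 within 1 h; the dim probe set on the right has an axis of its own near the background level, drawn as a dashed line.

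Most of the rise was reached at the first time sampled, and at 24 h 1425281_PM_a_at still stood 0.44 ± 0.06 above its 1 h level (adjusted p 1.42e-05; 8.22% of all tested probe sets called). At 1 h, 1425281_PM_a_at had made 73.7% of its largest log2 change and 1420772_PM_a_at 83.9%, and at 24 h they stood at 91.7% and 89.9% of it. From 1 h to 2 h 1425281_PM_a_at rose by a further 0.40 ± 0.06 (adjusted p 0.00039) and 1420772_PM_a_at by 0.26 ± 0.06 (adjusted p 0.0284). These were 2 of the 9 member probe sets in a step where 0.716% of all tested probe sets were called. The second of these calls was lost without 1 h replicate 1, 2 or 3 or without 2 h replicate 1 or 2, with adjusted p between 0.058 and 0.243, and with each array centred on its median, at 0.19 with an adjusted p of 0.54.

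After 2 h neither bright probe set changed past the threshold in a single step. From 2 h to 4 h, a step in which 1.22% of all tested probe sets were called, the differences were 0.14 ± 0.06 (1425281_PM_a_at, adjusted p 0.379) and 0.15 ± 0.06 (1420772_PM_a_at, adjusted p 0.284). From 4 h to 10 h they were 0.11 ± 0.06 and -0.12 ± 0.06, and from 10 h to 24 h -0.20 ± 0.06 (adjusted p 0.112) and -0.14 ± 0.06 (adjusted p 0.361). For 1425281_PM_a_at the last of these steps passed without 10 h replicate 3, at -0.26 with an adjusted p of 0.0406. Over longer spans 1420772_PM_a_at fell by 0.26 ± 0.06 on the log2 scale from its highest group at 4 h to 24 h (adjusted p 0.00782; 4.73% of all tested probe sets called), a call lost without 4 h replicate 2 (adjusted p 0.0561) and with no intensity trend (0.0713), and 1425281_PM_a_at rose by 0.25 ± 0.06 from 2 h to 10 h (adjusted p 0.0124; 5.92% called), a call lost without 2 h replicate 3 (0.0812) or without 10 h replicate 1 (0.0771).

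Ordered by group mean, 1420772_PM_a_at ran from baseline through 1 h, 24 h, 2 h and 10 h to 4 h, and the only neighbours in that order that differed were baseline and 1 h; the other neighbours had adjusted p between 0.117 and 0.860. For 1425281_PM_a_at the order was baseline, 1 h, 2 h, 24 h, 4 h and 10 h. There the neighbours baseline and 1 h differed and so did 1 h and 2 h, whereas the neighbours from 2 h upward had adjusted p between 0.472 and 0.784. On the same array, 1425281_PM_a_at minus 1420772_PM_a_at averaged 0.28 ± 0.18 (SD, n = 3) at baseline, -0.08 ± 0.06 at 1 h, 0.06 ± 0.07 at 2 h, 0.04 ± 0.02 at 4 h, 0.27 ± 0.17 at 10 h and 0.21 ± 0.06 at 24 h. In 7 comparisons of this difference between groups the exact two-sided permutation p was 0.1 at the lowest, the floor of a design with 3 arrays on each side, and 0.233 after Benjamini-Hochberg adjustment. A test with that floor could not pass the threshold whatever the values were, so nothing is read from it, and the comparison was chosen after the values were seen.

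The remaining probe set of Tsc22d3, 1425557_PM_x_at, was dim, and the suffix x marks probes that may also bind other transcripts. It read 3.71, 3.73 and 3.76 at baseline, under the average background level of 3.87. Of the 3 baseline arrays 1 had it above that array's own background, as had all 15 treated arrays. It read from 3.95 to 4.39 on the treated arrays, and all treated arrays lay above all baseline arrays. That separation adds no support at the times without a call. Its changes were 0.29 ± 0.12 at 1 h (adjusted p 1.00), 0.47 ± 0.12 at 2 h (0.0526), 0.54 ± 0.12 at 4 h (0.00798), 0.59 ± 0.12 at 10 h (0.00203) and 0.37 ± 0.12 at 24 h (0.0647). It passed the test at 4 h and 10 h. With its baseline at background these differences have no exact size and no fold is given: adding 16 to each intensity before the log gave 0.27 at 4 h and 0.30 at 10 h, both still called. At 2 h it was called with no intensity trend (adjusted p 0.00415), with the stepped values kept (0.0439) or with p adjusted over 5 times together (0.0255), and at 24 h with no trend (0.00935).

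Tsc22d1, the member first found as a TGF-beta induced transcript, did not pass the test through 10 h and was lower at 24 h on its brightest probe set. Probe set 1425742_PM_a_at read 7.39, 7.22 and 7.32 at baseline and 6.96, 7.04 and 6.84 at 24 h. The arrays between those times read from 7.26 to 7.58, so the 3 arrays of 24 h lay below the other 15. How many of all tested probe sets separate so is not given here. It fell by 0.36 ± 0.09 on the log2 scale from baseline to 24 h, to 0.778 of the baseline level, with an adjusted p of 0.0112. Without baseline replicate 1 the adjusted p was 0.0517 and without 24 h replicate 3 it was 0.0738. From 10 h to 24 h it fell by 0.37 ± 0.09 (adjusted p 0.0416), the 1 call among 9 members in a step where 1.17% of probe sets were called. That call was lost in 9 of 18 fits without 1 array: each of the 3 arrays at 10 h, each of the 3 at 24 h, and replicate 2 at 1, 2 and 4 h, with adjusted p up to 0.192.

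A second Tsc22d1 probe set, 1454758_PM_a_at, read 7.23, 7.23 and 7.42 at baseline and 6.77, 7.17 and 7.02 at 24 h. These do not overlap, but the share of all tested probe sets that separate so is not given here. Its difference of -0.30 ± 0.10 at 24 h had an adjusted p of 0.0668, and -0.39 with an adjusted p of 0.0182 after quantile normalization; without 24 h replicate 2 it was -0.40 with an adjusted p of 0.0247. Against 2 h it fell by 0.48 ± 0.10 on the log2 scale to 24 h (adjusted p 0.00356; 6.02% called). The third, 1433899_PM_x_at, read from 5.97 to 6.29 at baseline and from 5.95 to 6.14 at 24 h, which overlap, at -0.05 ± 0.12 with an adjusted p of 0.873 and a 95% interval of -0.31 to 0.20. The 3 probe sets of Tsc22d1 thus gave 1 call at 24 h, and the dimmer x probe set had no call in any of 15 pairwise comparisons. At 1, 2, 4 and 10 h the changes of the 3 probe sets lay between -0.02 and 0.18, and their signs at 10 h turned with another scaling.

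Tsc22d2 showed no change past the threshold against baseline. Probe set 1430535_PM_at read 7.35, 7.31 and 7.35 at baseline, 7.17, 7.39 and 7.19 at 1 h, and 7.41, 7.55 and 7.46 at 24 h. The 24 h arrays lay above the baseline arrays and the 1 h arrays on both sides of them. No support is drawn from this, as the share of all tested probe sets that separate so is not given. Its changes ran from -0.09 ± 0.08 at 1 h to 0.14 ± 0.08 at 24 h (adjusted p 0.386), and the 95% intervals of the 5 times reached from -0.26 to 0.31. The dim probe set 1453012_PM_at read 4.12, 4.20 and 3.82 at baseline and 4.53, 4.72 and 4.33 at 4 h. At 4 h it stood 0.48 ± 0.16 above baseline with an adjusted p of 0.0922 and 0.63 ± 0.16 above 1 h with an adjusted p of 0.0208 (3.82% of all tested probe sets called). The latter call was lost without 1 h replicate 1 or 3 or 4 h replicate 1 or 2, with adjusted p between 0.0572 and 0.177, and with only the groups compared (0.0507). Adding 16 to each intensity gave 0.34, and 1 of the arrays at 1 h, at 3.58, lay under background.

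Tsc22d4, whose protein has been tied to insulin and lipid metabolism in liver, was slightly higher at 4 h and 10 h. Probe set 1448412_PM_a_at read 7.17, 7.26 and 7.25 at baseline, 7.47, 7.51 and 7.53 at 4 h, and 7.48, 7.42 and 7.54 at 10 h. At 24 h it read 7.41, 7.36 and 7.44, and in all 3 of these groups every array lay above every baseline array. These groups share the baseline arrays, and the share of all tested probe sets that separate so is not given here. The change was 0.28 ± 0.08 at 4 h (1.21-fold, adjusted p 0.0428), 0.25 ± 0.08 at 10 h (1.19-fold, adjusted p 0.0462) and 0.18 ± 0.08 at 24 h (adjusted p 0.197). At 1 h and 2 h it was 0.03 and 0.07, and the latter turned to -0.03 with each array centred on its median. Both calls were close to the threshold: they held in 7 of 18 fits without 1 array at 4 h and in 3 of 18 at 10 h, and centring each array gave 0.22 (adjusted p 0.248) and 0.17 (adjusted p 0.304). The arrays whose absence kept both calls were 1 h replicate 3 and 2 h replicates 1 and 2; at 4 h the 3 arrays of 10 h and 24 h replicate 2 did so too. The probe set not tested, 1430299_PM_at, read between 2.77 and 3.53 on the 18 arrays, with its highest value at 24 h and its lowest at 2 h.

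**Figure D2:**
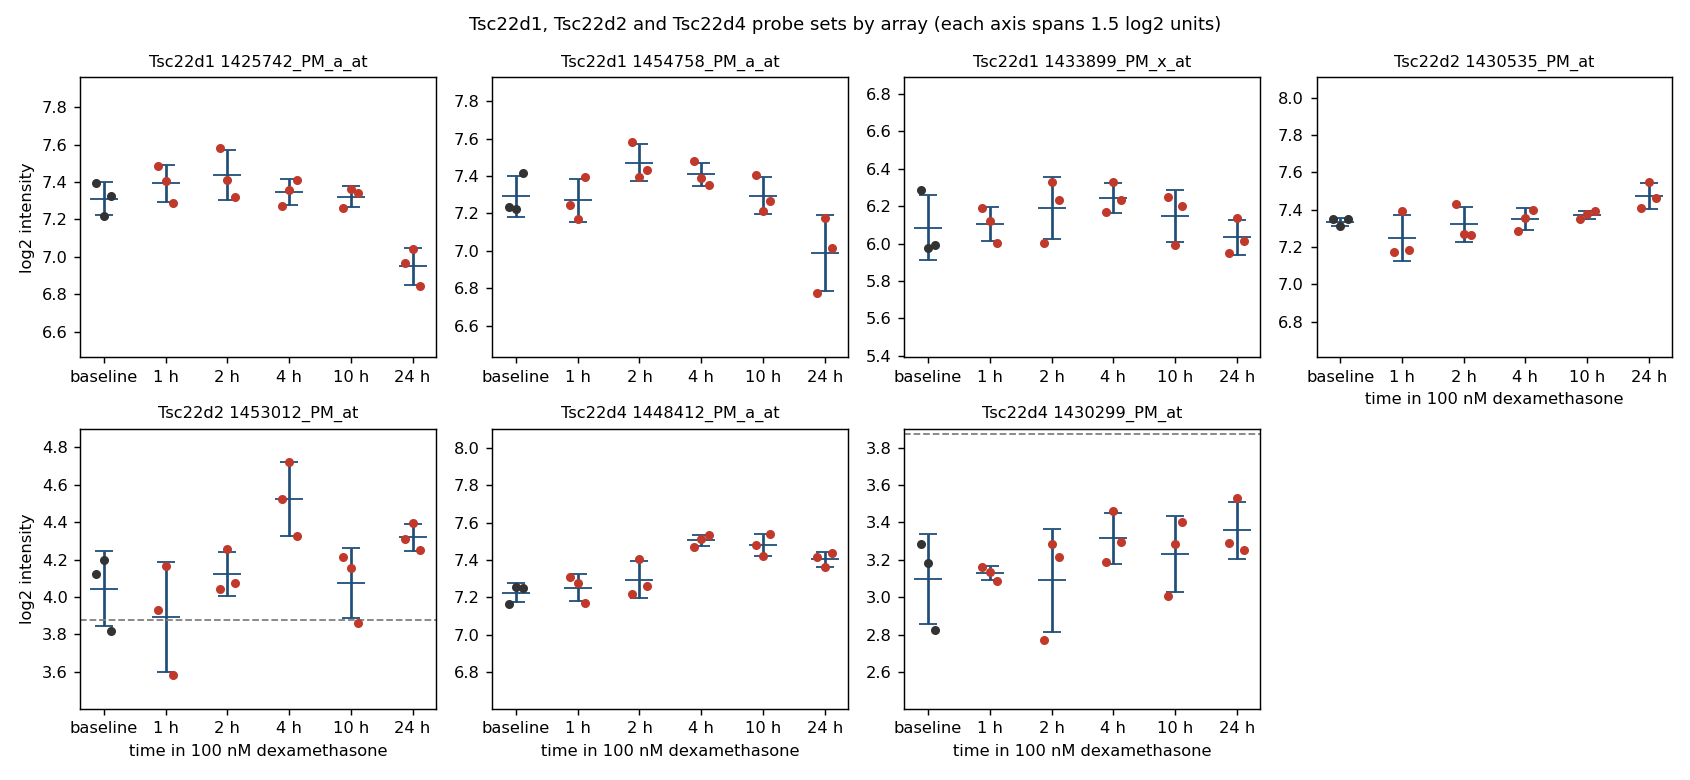
Log2 intensity of the 7 probe sets of Tsc22d1, Tsc22d2 and Tsc22d4 on each of 18 arrays by time in 100 nM dexamethasone; points are arrays (baseline black, treated red), bars the mean ± SD of 3 arrays, and the dashed line background. Every axis spans 1.5 log2 units; the 24 h arrays of Tsc22d1 1425742_PM_a_at, at 6.84 to 7.04, lie below its other arrays.

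Counted over the family, 2 of 9 tested probe sets were called at 1 h, where 0.331% of all tested probe sets were. At 2 h it was again 2, against 1.79% of all. At 4 h 4 were called, the 3 of Tsc22d3 and 1 of Tsc22d4, against 5.22%, and at 10 h the same 4, against 9.7%; 1 of these 4 is the Tsc22d3 probe set with its baseline at background. At 24 h 3 were called, 2 of Tsc22d3 upward and 1 of Tsc22d1 downward, against 8.7%. The F test over the 5 times called 6 of the 9, against 12.5% of all tested probe sets: the 3 of Tsc22d3, with adjusted p of 1.92e-19, 6.29e-19 and 0.0126, Tsc22d1 1425742_PM_a_at (0.00433) and 1454758_PM_a_at (0.022), and Tsc22d4 1448412_PM_a_at (0.0476). Probe sets of 1 gene read the same RNA, so these counts are not counts of independent genes. All 5 comparisons share the baseline arrays.

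**Figure D3:**
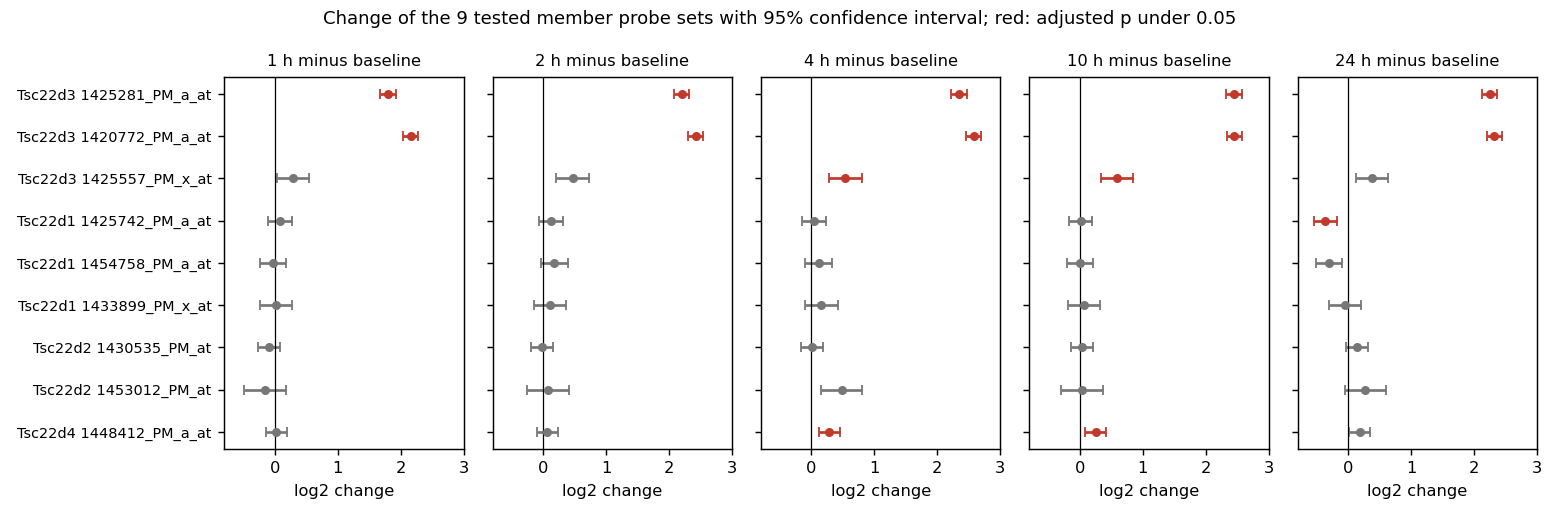
Log2 change from baseline of the 9 tested probe sets of the family at each time, with the 95% confidence interval of the limma model (n = 3 arrays a group); red marks an adjusted p under 0.05. The pair of bright Tsc22d3 probe sets lie between 1.80 and 2.58 at every time, and the other 7 between -0.36 and 0.59.

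The wider pathways of the family were read from 6 gene lists, each gene by its probe set of highest mean, tested with all probe sets. Of genes so read over the array, 0.349% were called at 1 h, 2.05% at 2 h, 6.64% at 4 h, 12.5% at 10 h and 11.2% at 24 h, and the median change of all tested genes was between 0.00 and 0.01 at each time. Of all tested genes 17.9% were called at 1 or more times. Among 16 tested genes known as glucocorticoid receptor targets, of 20 listed and Tsc22d3 included, 7 rose and 1 fell at 1 h, and 11 rose and 3 fell at 24 h. Their median change was 0.21 at 1 h, 0.68 at 2 h, 0.85 at 4 h, 0.81 at 10 h and 1.20 at 24 h.

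The targets with the largest changes differed in course. Dusp1, a phosphatase that inactivates MAP kinases, was highest at 1 h, at 3.36 ± 0.09, and stood at 2.29 ± 0.09 at 24 h. Fkbp5, a co-chaperone that lowers receptor activity, was at 0.14 ± 0.07 at 1 h with an adjusted p of 1.00 and had risen by 3.80 ± 0.07 at 10 h. Ddit4, whose product restrains mTOR, rose by 2.30 ± 0.19 at 1 h and 3.98 ± 0.19 at 4 h. Zbtb16, a zinc finger repressor, was at 0.78 ± 0.26 at 2 h (adjusted p 0.201) and rose by 2.95 ± 0.26 at 4 h. Tsc22d3 had passed the test by 1 h, as Dusp1 and Ddit4 had.

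The list for the induction of Tsc22d3 transcription held genes of steroid receptors, FOXO factors, CREB and chaperones of the receptor. It showed 0 calls among 6 tested of 9 listed at any time, where 17.9% of all tested genes were called at 1 or more times. Nr3c1, which encodes the glucocorticoid receptor, came closest, at -0.27 ± 0.08 at 4 h with an adjusted p of 0.0715, which was 0.0492 with 1 probe set per gene tested and 0.0476 with each array centred. Foxo3, a factor held in the cytoplasm by AKT, lay between -0.12 and 0.06. Creb1 lay between -0.01 and 0.19, with an adjusted p of 0.117 or more at each time. Foxo1 and Nr3c2 were under the background level at baseline, with means of 3.40 and 3.53.

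Of 18 genes for proteins that GILZ has been reported to bind or to act on, 10 were tested and 7 were called at 1 or more times, with rises and falls among them. Fos, a subunit of AP-1, rose by 1.28 ± 0.10 at 1 h and 1.39 ± 0.10 at 4 h and was still 0.50 ± 0.10 higher at 24 h. Pparg, a nuclear receptor of lipid metabolism, fell by 0.49 ± 0.09, fell by 0.84 ± 0.09 and fell by 0.98 ± 0.09 on the log2 scale at 4, 10 and 24 h. Cebpa, a myeloid transcription factor, rose by 0.74 ± 0.12 at 4 h and 0.48 ± 0.12 at 10 h. Its relative Cebpb rose by 0.41 ± 0.05 at 2 h and stayed 0.22 to 0.27 higher later, calls that centring each array ended at 4, 10 and 24 h (adjusted p 0.0915, 0.0775 and 0.278). Rela, the NF-kappaB subunit that GILZ binds, lay between -0.19 and -0.04 with no call. The list's median change lay between -0.06 and 0.02.

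In the NRBP1 and WNK pathway, which controls ion transport and cell volume, 8 of 12 genes were tested and 2 were called. Wnk1, the kinase that starts the cascade, was at 0.00 ± 0.06 at 1 h and rose by 0.33 ± 0.06 at 2 h, 0.65 ± 0.06 at 4 h, 0.84 ± 0.06 at 10 h and 0.74 ± 0.06 at 24 h. The call at 2 h was lost with each array centred (adjusted p 0.176). Wnk2 was dim, with a baseline mean of 3.57, and was called at 10 h alone, at 0.44 ± 0.12; centring ended that call (adjusted p 0.105). Nrbp1, which encodes the pseudokinase bound by members of the family, lay between 0.05 and 0.16 with no call.

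Of the TGF-beta list 16 of 19 genes were tested and 6 were called at 1 or more times, 4 of them upward. Smurf2, a ubiquitin ligase for SMAD proteins and receptors, rose by 0.40 ± 0.07 at 2 h, 0.93 ± 0.07 at 4 h, 0.86 ± 0.07 at 10 h and 0.71 ± 0.07 at 24 h. Tgfbr1, the type I receptor, rose by 0.58 ± 0.05 at 4 h and was 0.17 to 0.19 higher at 10 h and 24 h. The co-receptor gene Tgfbr3 rose by 0.70 ± 0.18 at 4 h and 0.71 ± 0.18 at 10 h. Smad4, the SMAD shared by the pathway's branches, rose by 0.37 ± 0.07 at 10 h and 0.32 ± 0.07 at 24 h. Centring each array ended the calls at 2 h of Smurf2 (adjusted p 0.0809) and Tgfbr1 (0.199), those of Tgfbr1 at 10 h (0.533) and 24 h (0.501), and that of Smad4 at 24 h (0.0667). The ligand gene Tgfb1 was not called, at -0.27 ± 0.09 at 4 h with an adjusted p of 0.0893, and was called lower there with each array centred (-0.33, adjusted p 0.0245). The list's median lay between -0.03 and 0.06.

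Among genes of AKT and FOXO control, 6 of 9 were tested and 2 were called. Pik3r1, the regulatory subunit of phosphoinositide kinase, was at 0.16 ± 0.05 at 1 h (adjusted p 0.666) and rose by 0.66 ± 0.05 at 2 h, 0.69 ± 0.05 at 4 h, 0.52 ± 0.05 at 10 h and 0.62 ± 0.05 at 24 h. Pik3ca, the catalytic subunit, rose by 0.26 ± 0.07 at 24 h, a call lost with each array centred (adjusted p 0.24). Akt1 lay between -0.12 and -0.08 and Akt2 between -0.02 and 0.06, with no call. Over the 6 lists no call changed direction in either scaling, of 95 in all; 14 were lost with each array centred and 1 after quantile normalization.

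**Figure D4:**
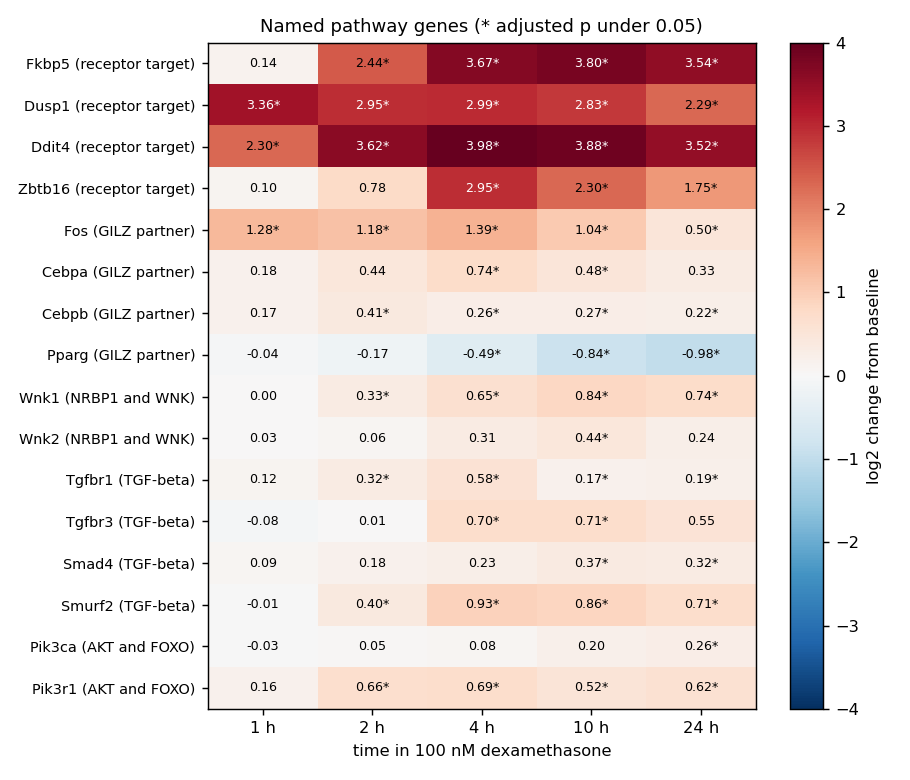
Log2 change from baseline of the 16 named pathway genes (rows, with their list) at each time in 100 nM dexamethasone (columns); blue is lower and red higher, the number in each cell is the change, and a star marks an adjusted p under 0.05. Pparg is lower at 4, 10 and 24 h, down to -0.98, and the 4 receptor targets are higher by 1.75 or more at 24 h.

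The genes whose course over the 6 group means was most like that of Tsc22d3 1425281_PM_a_at were sought among 232 genes that passed the F test and spanned at least 1 log2 unit. The 8 most alike were Id1 (Pearson r 0.984), Ddit4 (0.983), Gpr65 (0.980), Stk17b (0.972), Per1 (0.966), Ptger2 (0.962), Tigd2 (0.945) and Nfil3 (0.930). The r is a description of 6 means that share the same arrays, and baseline against treated makes up most of it. Of these 8 genes, 6 were also among the 8 most like 1420772_PM_a_at, for which Per1 came first (0.989).

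These genes rose at every time, which their choice by likeness to Tsc22d3 favoured, and by different amounts. Id1, an inhibitor of helix-loop-helix factors, rose by 1.29 ± 0.16 at 1 h and 1.55 ± 0.16 at 24 h. Per1, a clock repressor, rose by 2.10 ± 0.10 at 1 h and 2.54 ± 0.10 at 2 h and stood at 2.07 ± 0.10 at 24 h. Gpr65, a receptor that senses protons, and Ptger2, a receptor for prostaglandin, rose by 0.73 ± 0.08 and 0.62 ± 0.12 at 1 h and by 1.27 ± 0.08 and 1.30 ± 0.12 at 4 h. The kinase gene Stk17b rose by 1.20 ± 0.06 at 10 h, Tigd2 by 1.41 ± 0.06 at 4 h, and Nfil3, a leucine zipper repressor, by 1.58 ± 0.15 at 4 h. The smallest of these rises at 1 h had an adjusted p of 0.0165.

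**Figure D5:**
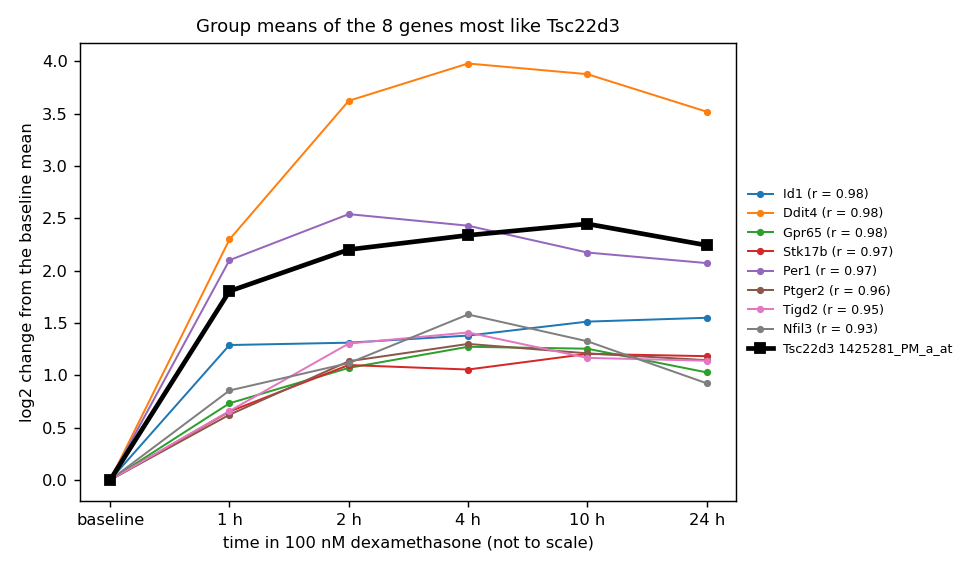
Log2 change of group means from baseline for Tsc22d3 1425281_PM_a_at (black squares) and the 8 genes with the most similar course (colours, with Pearson r over 6 group means) by time in 100 nM dexamethasone; the time axis is not to scale. All 9 rise by 1 h, and Ddit4 reaches 3.98 at 4 h where Tsc22d3 is at 2.34.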

How the data were processed

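Expression was measured on Affymetrix arrays, 1 sample of biotin-labelled RNA per array, in 18 samples. The deposited values are intensities, 1 for each probe set of an array, from 5.37 to 15224, a range that puts them on a linear scale. Per the submitters' processing notes the authors ran RMA from affy; versions are not given in the sources used here. RMA is meant to make the arrays' distributions alike, so a shift shared by most genes would be removed at least in part. Scaling still mattered for these values. At 24 h 57.7% of calls were higher as deposited, 48.3% when quantile normalized again and 28.7% with each array centred on its median. The log2 of each intensity was taken.

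Of 45141 probe sets, 104 controls were left out, as were 211 consecutive probe sets with evenly stepped values in baseline replicate 1, none of them in the family. A probe set was tested where 3 or more arrays had it at or over their own 40th percentile, true of 31426. Background, 3.87 log2 on average, was each array's 95th percentile among 40 controls of non-mouse sequence. Groups came from the sample titles. limma 3.58.1 in R 4.3.3 fitted 1 mean per group over all 18 arrays, with eBayes and an intensity trend, and tests were two-sided. On simulated data for 24 h against baseline with 31426 probe sets, 10% of changes of 0.25 log2, 44% of 0.5, 94% of 1 and 100% of 2 were recovered, with 4 false among 128 calls. That simulation changed 50 probe sets at each size, with independent noise. The data held 2734 calls at 24 h, so these shares need not hold there. The number of arrays limits the precision.

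Named genes were all probe sets of the family, at most 4 called genes of each list by largest change, and the 8 genes most alike. Nr3c1, Nr3c2, Foxo3, Foxo1, Creb1, Rela, Nrbp1, Tgfb1, Akt1 and Akt2 were added after their values were seen. So were Mmp8, Ngp, Ltf, Camp, Kit and the 10 macrophage markers on the array. The members and lists were chosen with earlier results of these data known. Symbols came from GEO's platform annotation, and 10 of 10 member probe sets kept their symbol by Entrez ID. Alternatives covered the filter, scaling, trend, groups fitted, stepped values, probe sets per gene, adjustment, offset and each array left out.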

Additional observations from a re-analysis of the deposited data

Results flagged for a closer look

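Each value here is a difference between treated times that passed limma's test, so that the change from baseline differed between those times. For Tsc22d3 1425281_PM_a_at the differences from 1 h were 0.40 ± 0.06 at 2 h (adjusted p 0.00039), 0.53 ± 0.06 at 4 h (1.48e-06), 0.64 ± 0.06 at 10 h (3.51e-08) and 0.44 ± 0.06 at 24 h (1.42e-05), and 10 h stood 0.25 ± 0.06 above 2 h (0.0124). For 1420772_PM_a_at they were 0.26 ± 0.06 at 2 h (0.0284), 0.42 ± 0.06 at 4 h (4.15e-05) and 0.29 ± 0.06 at 10 h (0.00155), and 24 h minus 4 h was -0.26 ± 0.06 (0.00782). In each of these 9 comparisons the arrays of the groups did not overlap. They were picked for passing the test, so this adds no support. The share of all tested probe sets without overlap is not given here. For Tsc22d1 1425742_PM_a_at, 24 h lay below 1 h by -0.44 ± 0.09 (0.00209), below 2 h by -0.49 ± 0.09 (0.00103), below 4 h by -0.40 ± 0.09 (0.00906; 0.0637 without 24 h replicate 3) and below 10 h by -0.37 ± 0.09 (0.0416). For 1454758_PM_a_at, 24 h minus 2 h was -0.48 ± 0.10 (0.00356) and 24 h minus 4 h was -0.42 ± 0.10 (0.0147); the latter was lost without 4 h replicate 1 (0.0773) or 24 h replicate 1 (0.133). Tsc22d2 1453012_PM_at was 0.63 ± 0.16 higher at 4 h than at 1 h (0.0208). Of 18 fits without 1 array, 4 lost this call and 9 lost that of Tsc22d1 1425742_PM_a_at between 10 h and 24 h. For Tsc22d3 1420772_PM_a_at 5 lost the call between 1 h and 2 h and 1 that between 4 h and 24 h. For 1425281_PM_a_at 2 lost the call between 2 h and 10 h. Of all tested probe sets, 0.716% were called between 1 h and 2 h, 3.82% between 1 h and 4 h, 8.75% between 1 h and 10 h and 8.22% between 1 h and 24 h. The share was 5.92% between 2 h and 10 h, 6.02% between 2 h and 24 h, 4.73% between 4 h and 24 h and 1.17% between 10 h and 24 h.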

How the results depend on the processing

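The rise of the 2 bright Tsc22d3 probe sets kept its direction and stayed past the threshold at all 5 times under every alternative run, with the mean of the gene's 3 probe sets giving the lowest values. Over 67 values of the family, 2047 recomputed values held 1919 with the same direction and side of the threshold; 74 lost a call, 12 gained one and 42 changed sign, and of the 31 values called as reported 0 changed sign. The cause was not tested where a result moved, apart from fits that test fewer probe sets or use fewer arrays. Signal over background limits the 3 dim probe sets, and 3 arrays a group limit changes of 0.5 log2 or less.

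Values that changed sign were small and uncalled. With quantile normalization and with each array centred on its median, in that order, Tsc22d1 1425742_PM_a_at gave -0.04856 and -0.07791 at 10 h and -0.008375 and -0.02751 at 4 h. Its 1433899_PM_x_at gave -0.02868 and -0.002912 at 1 h and -0.06132 and -0.02669 at 10 h, and -0.01201 at 2 h with quantile normalization; its 1454758_PM_a_at gave -0.06199 and -0.08589 at 10 h. Tsc22d2 1430535_PM_at gave -0.02427 and -0.05182 at 10 h and -0.03457 and -0.05202 at 4 h, and 0.03189 at 2 h as the mean of its probe sets. With centring, Tsc22d2 1453012_PM_at gave -0.05747 at 10 h and -0.0193 at 2 h, and Tsc22d4 1448412_PM_a_at -0.02861 at 2 h.

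Tsc22d4 1448412_PM_a_at lost its calls with no filter (0.2792, adjusted p 0.074, at 4 h and 0.255, adjusted p 0.077, at 10 h), a robust fit (0.0506 and 0.0545), only the groups compared (0.122 and 0.188), quantile normalization (0.2309 and 0.1892), centring (0.2159 and 0.1664) and the mean of its probe sets (0.249 and 0.1942), and at 10 h with p adjusted over 5 times together (0.0777). For Tsc22d1 1425742_PM_a_at the 24 h minus 10 h call, -0.3734, was lost with no filter, no trend and only the groups compared. For Tsc22d3 1425281_PM_a_at the 10 h minus 2 h call was lost with no trend (0.2455) and the mean of probe sets (0.1326). Tsc22d1 1454758_PM_a_at was called lower at 24 h with the 60th percentile filter (0.0491), quantile normalization (0.0182) and centring (0.0211). Calls were also lost for Tsc22d3 1420772_PM_a_at, 24 h minus 4 h, with no trend (0.0713) and for Tsc22d2 1453012_PM_at, 4 h minus 1 h, with only the groups compared (0.0507). Tsc22d3 1425557_PM_x_at was called at 2 h with no trend (0.00415), stepped values kept (0.0439) or adjustment over 5 times (0.0255), and at 24 h with no trend (0.00935); adding 16 to each intensity took its 10 h value from 0.592 to 0.2994. Of the members, 1 was called from 1 h to 2 h with centring or no trend, and 0 from 10 h to 24 h with no filter, no trend or only the groups compared.

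Counts of called probe sets moved by over 1.5 times in these cases. With 1 probe set per gene they were 51 at 1 h, 283 at 2 h, 992 at 4 h, 1905 at 10 h, 1678 at 24 h, 148 from 1 h to 2 h and 251 from 2 h to 4 h. With no trend they were 141 from 1 h to 2 h, 196 from 2 h to 4 h, 389 from 4 h to 10 h and 144 from 10 h to 24 h. With only the groups compared they were 1931 at 10 h, 420 from 4 h to 10 h and 208 from 10 h to 24 h; adjusted over 5 times together 213 at 1 h, and centred 224 from 10 h to 24 h. The share of calls that were higher was 85.6% at 1 h, 78.6% at 2 h, 60.1% at 4 h, 57.2% at 10 h and 57.7% at 24 h, and 84.3%, 57.8%, 42.9%, 32% and 28.7% with each array centred, where the median of all probe sets moved to -0.092 at most; at 24 h it was 48.3% with quantile normalization. Adjustment over 5 times was not run for steps between treated times, and the mean of all probe sets only for each gene's brightest.

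Same-numbered arrays did not meet the rule for pairing: 36 of 45 same-number pairs correlated over 0.1 in their deviations from group means, from -0.0146 to 0.285, although 18 of 18 arrays correlated best on average with their own number. With the replicate number as a block, 193 probe sets were called at 1 h, 868 at 2 h, 351 from 1 h to 2 h, 878 from 2 h to 4 h, 1331 from 4 h to 10 h and 868 from 10 h to 24 h. From 10 h to 24 h the block gave 2 called members, Tsc22d3 1425281_PM_a_at being the second (-0.2041, adjusted p 0.0156). Tsc22d1 1454758_PM_a_at at 24 h (0.0411) and Tsc22d2 1453012_PM_at at 4 h (0.0261) were also called. So were list genes not called in the fit as reported, among them Nr3c1 at 4 h (0.0388) and Zbtb16 at 2 h (0.0218).

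With each array left out in turn, members called ran from 1 to 2 from 1 h to 2 h and from 0 to 1 from 10 h to 24 h. Probe sets called ran from 126 to 244 from 1 h to 2 h, 187 to 443 from 2 h to 4 h, 396 to 757 from 4 h to 10 h and 162 to 390 from 10 h to 24 h. The lowest counts came without 1 h replicate 3, 4 h replicate 2, 4 h replicate 1 and 24 h replicate 1. Tsc22d1 1425742_PM_a_at ran from -0.01182 to 0.07726 at 4 h, -0.03694 to 0.05213 at 10 h and -0.4103 to -0.3091 at 24 h, and 24 h from -0.4444 to -0.3449 against 4 h and -0.4193 to -0.3197 against 10 h. Its 1433899_PM_x_at ran from -0.03471 to 0.1212 at 1 h and -0.1062 to 0.04976 at 24 h, and 1454758_PM_a_at from -0.0853 to 0.04016 at 1 h, -0.05197 to 0.06573 at 10 h and -0.3967 to -0.1967 at 24 h. Tsc22d2 1430535_PM_at ran from -0.06855 to 0.01264 at 2 h and -0.01529 to 0.04282 at 4 h, and 1453012_PM_at from -0.2894 to 0.002956 at 1 h, -0.03528 to 0.1545 at 2 h and -0.08284 to 0.1376 at 10 h. Tsc22d3 1420772_PM_a_at ran from 0.2268 to 0.2862 from 1 h to 2 h and -0.2912 to -0.2368 from 4 h to 24 h, and 1425281_PM_a_at from 0.1956 to 0.3045 from 2 h to 10 h and -0.2631 to -0.1542 from 10 h to 24 h. Tsc22d4 1448412_PM_a_at ran from -0.002065 to 0.06875 at 1 h, 0.25 to 0.2967 at 4 h and 0.225 to 0.2841 at 10 h.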
